A study of Homo sapiens with 12 samples.

Results

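The RNA-binding proteins that choose splice sites, the heterogeneous nuclear ribonucleoproteins (hnRNPs) and the serine/arginine-rich (SR) splicing factors, were followed by transcript level in HT1080, a long-established cell line grown from a human fibrosarcoma. Members were taken by name alone: every probe whose gene symbol in the deposited probe table began with HNRNP, HNRP, SFRS or SRSF, which gave 67 of 48797 probes, for 43 genes. Of these, 40 probes belonged to 24 hnRNP genes and 27 probes to 19 SR-named genes. The older symbol SFRS was also used for genes that now carry other names, so the SR-named probes were described in 2 sets, 12 probes of 10 genes with a current SRSF symbol (SR proteins) and 15 probes of 9 genes now called AKAP17A, CLASRP, SCAF4, SCAF11, SFSWAP, SREK1, SREK1IP1, SUGP2 and TRA2B (SR-related). A probe counted as measured where its intensity reached 64 on at least 3 of the 12 arrays, and 61 of the 67 did: 37 hnRNP probes of 23 genes and 24 SR-named probes of 18 genes. The 6 others were 2 probes of HNRNPCL1 and 1 probe each of HNRNPUL2, SCAF11, SREK1 and SREK1IP1, whose highest values over the arrays ran from 15.7 to 53.0.

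The cells had been stably transduced with ING2, a subunit of a histone deacetylase complex that reads a methylated histone mark, either as the wild type (ING2-WT) or as a form whose lysines and arginines for binding the nuclear lipid PtdIns(5)P were replaced by alanine (ING2-6K/Rmt). Each line received the vehicle DMSO or 100 uM etoposide, a topoisomerase II poison that breaks DNA, for 16 h per the labels (the study's text gives a longer time for its expression arrays), and each of the 4 groups holds 3 arrays numbered 1 to 3. The study describes these lines as stable populations made with a retrovirus, in which introduced ING2 replaced most of the protein that the cells make themselves. A figure legend of the study calls its expression replicates biological and the labels only number them, so p-values measure the spread between these arrays.

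The labelled cell type and treatment were checked first. The mesenchymal markers VIM, FN1, CD44, LGALS1, PLAUR and MMP14 stood at 64 or more on all 12 arrays, and the epithelial and blood markers KRT5, KRT19, PTPRC and CD3E on 0, with CDH1, EPCAM and HBB reaching it on 3, 4 and 1. CDKN1A, the p53 target that halts the cell cycle, averaged 3637 on the arrays labelled ING2-WT with DMSO and 15600 on those with etoposide, whereas on the arrays labelled ING2-6K/Rmt it averaged 14260 with DMSO and 4794 with etoposide. TOP2A, the proliferation-linked target of etoposide, went from 2536 to 126 in the first pair of groups and from 91.3 to 2504 in the second. By these genes the arrays labelled ING2-6K/Rmt ran opposite to those labelled ING2-WT. Exchanged labels and an altered response of the line cannot be told apart from these values, and directions on these arrays are given by label only. The line labels could not be checked by the introduced gene either. The brighter of 2 ING2 probes read 21060 and 20290 on arrays 1 and 2 labelled ING2-6K/Rmt with etoposide, 119 on array 3 of that group and 112 to 455 on the 9 arrays of the other groups. ING2 thus stood high on 2 of the 12 arrays, although both lines carry an introduced copy, so the names of the lines below are those of the labels. Whether the ING2 probes lie within the introduced sequence was not analysed here. Arrays numbered 1 and 2 of a group correlated at r of 0.964 to 0.977 over the measured probes, and the array numbered 3 correlated with them at 0.745 to 0.944, lowest in the ING2-WT etoposide group, so results are given with and without the arrays numbered 3. Without these, each group keeps arrays 1 and 2 alone. The arrays numbered 3 were set aside because of these same values, so p-values of that fit understate the spread.

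As background, hnRNPs coat nascent transcripts and often block the use of nearby splice sites, whereas SR proteins bind enhancers within exons and recruit the spliceosome through domains rich in arginine and serine. The families compete on many exons, so their relative amounts shape which exons are kept. Many members also limit their own level by splicing in an exon that marks their transcript for decay, and DNA damage is known to alter splicing through both families.

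The genes were spread over 18 chromosomes, with HNRNPD and HNRNPDL as neighbours on chromosome 4. The members' promoters were read from RefSeq (GRCh38.p14) as the 250 bases before the annotated start, which were at hand for 36 of the 43 genes. The letters CCAAT, counted on either strand so that ATTGG was a match too, were found in 14 of 20 hnRNP promoters (70.0%), in 3 of 16 SR-named promoters (18.8%) and in 33.0% of all 27305 promoters of that length. The hnRNP genes with a match included HNRNPCL1, which was not measured, and HNRNPH2 and HNRNPLL, which ran against most hnRNPs in comparisons below. Whether a match goes with the direction of a transcript was not tested. The promoters of HNRNPA2B1, HNRNPD, HNRNPU, SRSF1 and SRSF3, chosen after their values were seen, are shown to set the classes side by side, each 5′ to 3′ on the gene's strand, with every CCAAT or ATTGG in capitals.
HNRNPA2B1, chr7:26200747-26200996, minus strand: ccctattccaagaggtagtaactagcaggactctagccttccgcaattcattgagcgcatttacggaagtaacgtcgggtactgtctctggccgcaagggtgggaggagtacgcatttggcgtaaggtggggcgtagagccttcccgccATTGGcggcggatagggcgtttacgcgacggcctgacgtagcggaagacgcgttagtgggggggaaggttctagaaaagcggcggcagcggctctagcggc
HNRNPD, chr4:82373992-82374241, minus strand: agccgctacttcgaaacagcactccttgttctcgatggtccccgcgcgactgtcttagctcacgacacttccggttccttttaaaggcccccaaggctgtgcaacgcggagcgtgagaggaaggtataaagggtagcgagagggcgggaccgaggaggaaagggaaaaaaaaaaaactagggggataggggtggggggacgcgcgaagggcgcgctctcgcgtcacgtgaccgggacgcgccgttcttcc
HNRNPU, chr1:244864544-244864793, minus strand: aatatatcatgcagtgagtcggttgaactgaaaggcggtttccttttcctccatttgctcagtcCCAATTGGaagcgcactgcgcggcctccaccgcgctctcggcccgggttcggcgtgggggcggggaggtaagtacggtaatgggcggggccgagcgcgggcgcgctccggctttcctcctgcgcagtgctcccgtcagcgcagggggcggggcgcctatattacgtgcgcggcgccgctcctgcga
SRSF1, chr17:58007247-58007496, minus strand: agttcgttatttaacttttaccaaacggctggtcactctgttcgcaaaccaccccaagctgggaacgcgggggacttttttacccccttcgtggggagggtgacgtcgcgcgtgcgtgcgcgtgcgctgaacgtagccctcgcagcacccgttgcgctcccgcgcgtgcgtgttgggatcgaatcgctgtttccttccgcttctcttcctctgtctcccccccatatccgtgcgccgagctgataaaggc
SRSF3, chr6:36594112-36594361, plus strand: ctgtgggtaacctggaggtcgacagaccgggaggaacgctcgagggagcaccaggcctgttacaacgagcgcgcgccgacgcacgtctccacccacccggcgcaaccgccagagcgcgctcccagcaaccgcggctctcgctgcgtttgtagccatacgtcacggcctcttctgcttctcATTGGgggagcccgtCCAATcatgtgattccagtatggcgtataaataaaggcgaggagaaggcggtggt
The match of HNRNPA2B1 began 101 bases before the start, the overlapping pair of HNRNPU at 186 and 183 bases, and the pair of SRSF3 at 70 and 55 bases, while HNRNPD and SRSF1 held none. The cell cycle element TTTGAA was present in 0 hnRNP and 1 SR-named promoter (13.6% of all promoters), TTTCCCGC or TTTGGCGC of E2F type in 1 and 1 (1.96%), TGACGTCA in 0 and 0 (1.77%) and CCGGAAGT of ETS type in 1 and 3 (3.64%), each on either strand. Median GC content was 66.0% in the hnRNP and 63.6% in the SR-named promoters, against 58.0% in all promoters. A match is a description of letters and not of a bound site.

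Etoposide was first compared with DMSO on the arrays labelled ING2-WT. There most hnRNP transcripts stood lower with etoposide: 33 of the 37 measured probes had a negative log2 difference and the median was -0.88, against -0.06 over all 15459 probes tested. Among the SR-named probes 18 of 24 were negative with a median of -0.15, and within them the SR proteins had a median of -0.58 and the SR-related probes of -0.09. Probes were called at an adjusted p under 0.05 in limma, with Benjamini-Hochberg adjustment over all 15459 probes. By that rule 2 hnRNP probes fell, 0 rose and 0 SR-named probes moved either way, where 2.86% of all probes were called lower, 1.43% higher and 4.29% in either direction. At an unadjusted p under 0.05, 14 hnRNP and 5 SR-named probes were lower and 0 higher, against 10.5% and 7.85% of all probes. Groups without overlap were seen for 14 hnRNP and 5 SR-named probes with etoposide lower, against 10.8% of all probes, and for 1 and 1 with etoposide higher, against 11.6%. In these bulk samples a change in the mix of cells cannot be told apart from a change in the RNA of each cell.

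The called probes were those of HNRNPH1 and HNRNPD. HNRNPH1, which binds runs of G in exons and introns, gave intensities of 837, 787 and 537 on the DMSO arrays 1, 2 and 3 and of 224, 326 and 62.6 on the etoposide arrays with its brighter probe (ILMN_2101920). The groups did not overlap, array 3 was the lowest in each, and the probe fell by 2.09 on the log2 scale (SE 0.51, 4.26-fold lower, limma adjusted p = 0.0401). Its dimmer probe (ILMN_2101928) read 147, 120 and 239 with DMSO and 171, 152 and 575 with etoposide, a log2 difference of 0.61 (SE 0.50, adjusted p = 0.561), so the probes of this gene differed in sign. HNRNPD, also named AUF1, binds AU-rich elements and speeds the decay of the mRNAs that carry them. Its dimmer probe (ILMN_1751368) read 7499, 6704 and 4352 with DMSO and 2684, 3024 and 1713 with etoposide. Those groups did not overlap, and the probe fell by 1.33 on the log2 scale (SE 0.33, 2.51-fold lower, adjusted p = 0.0487). The brighter HNRNPD probe (ILMN_2321451) read 9883, 10954 and 8425 against 4651, 5024 and 6351, again without overlap, with a log2 difference of -0.87 (SE 0.26, adjusted p = 0.0932). Each of these calls was lost when any of 10 of the 12 arrays was left out, with adjusted p of 0.0517 to 0.147 for HNRNPH1 (kept without array 2 or 3 of the ING2-WT etoposide group) and 0.0588 to 0.187 for HNRNPD (kept without array 3 of either DMSO group).

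**Figure D1:**
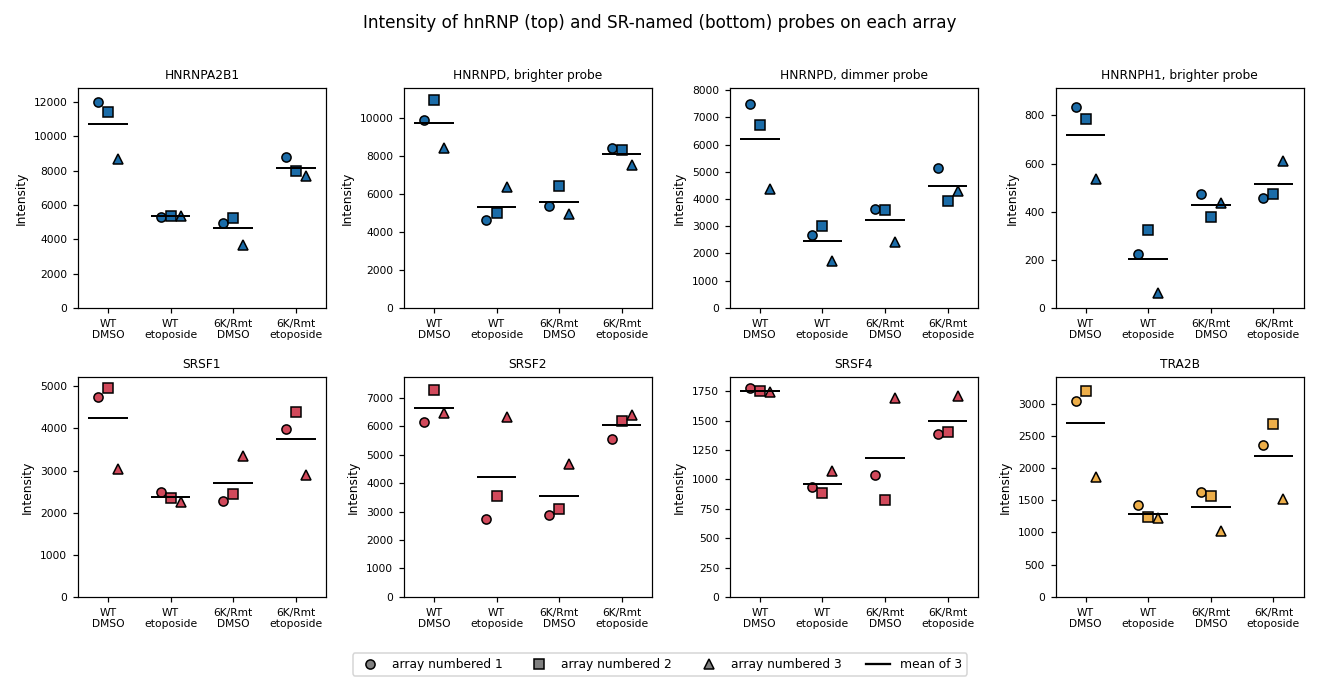
Intensity (vertical axis, from 0, scale set per panel) of 4 hnRNP probes in the top row and 4 SR-named probes in the bottom row on each of the 12 arrays, by group; marker shape gives the array number and the bar the mean of 3. HNRNPA2B1 stood at 8714 to 11997 with DMSO and 5302 to 5358 with etoposide on the arrays labelled ING2-WT, and at 3671 to 5266 and 7706 to 8798 on those labelled ING2-6K/Rmt.

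The remaining hnRNPs with the smallest p missed the threshold. HNRNPA2B1, a packaging hnRNP that also sorts small RNAs, had 1 probe (ILMN_2369682), which read 11997, 11428 and 8714 with DMSO and 5302, 5346 and 5358 with etoposide. The etoposide arrays lay within a narrow band below all DMSO arrays, and the log2 difference was -0.99 (SE 0.26, adjusted p = 0.060). HNRNPA1, the best known splicing silencer of the family, had a dim probe pair, and its brighter probe read 272, 320 and 163 with DMSO against 40.4, 78.2 and -10.9 with etoposide. Values under 16 were set to 16 before the log, and the log2 difference was -2.71 (SE 0.70, adjusted p = 0.0531), while the other HNRNPA1 probe gave -1.51 (SE 0.72, adjusted p = 0.293). HNRNPUL1, a relative of HNRNPU that acts in DNA end resection, read 2018, 2349 and 1974 against 1205, 1170 and 1082 with its brighter probe. Its groups lay far apart for their spread, with a log2 difference of -0.87 (SE 0.26, adjusted p = 0.0888).

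HNRNPM, which binds GU-rich RNA, read 5662, 5794 and 5346 with DMSO and 3552, 4023 and 4163 with etoposide with its brighter probe (log2 difference -0.52, SE 0.25, adjusted p = 0.299). HNRNPC measures the length of nascent transcripts and shields uridine tracts. Its brighter probe read 1649, 1540 and 1167 against 889, 1099 and 774 (-0.66, SE 0.28, adjusted p = 0.239). For neither brighter probe did the groups overlap, although neither was called. The dimmer HNRNPC probe read 846, 904 and 376.9 against 377.2, 330 and 295, with overlap (-0.99, SE 0.42, limma adjusted p = 0.232). HNRNPL, which binds CA repeats, read 913, 793 and 717 with DMSO and 504, 615 and 7.27 with etoposide, so that its log2 difference of -2.24 (SE 1.05, adjusted p = 0.286) was carried by array 3, and it was -0.61 without the arrays of that number. The same array set the dimmer HNRNPK probe, at 156, 209 and 6.66 against 204, 222 and 229 with DMSO (log2 difference -1.44, or -0.24 without the arrays numbered 3), while the brighter HNRNPK probe changed by -0.27 (SE 0.26, adjusted p = 0.635). HNRNPK binds C-rich tracts and is a cofactor of p53. The dimmer probe of HNRNPU, a scaffold protein of the nucleus, read 363, 370 and 481 with DMSO and 109, 89.2 and 319 with etoposide (-1.46, SE 0.52, adjusted p = 0.152), and the brighter probe gave -0.05 (SE 0.61).

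None of the SR-named probes was called in this comparison. SRSF1, the founding SR protein and an oncogene, read 4759, 4955 and 3031 with DMSO and 2499, 2341 and 2258 with etoposide, a log2 difference of -0.81 (SE 0.30, adjusted p = 0.180). SRSF4 read 1778, 1752 and 1741 against 936, 886 and 1068 (-0.87, SE 0.30, adjusted p = 0.142). SRSF7, which also links splicing to mRNA export, read 966, 1113 and 655 against 474, 295 and 573 (-1.05, SE 0.34, adjusted p = 0.127). In all 3 genes every etoposide array lay below every DMSO array. The same held for TRA2B, an SR-related activator of exon inclusion once named SFRS10, at 3044, 3196 and 1861 with DMSO and 1420, 1235 and 1224 with etoposide (-1.03, SE 0.34, adjusted p = 0.124). SRSF2 and SRSF6, which bind exonic enhancers, were low on etoposide arrays 1 and 2 only: SRSF2 read 6150, 7272 and 6469 against 2727, 3542 and 6336, and SRSF6 read 3591, 3503 and 3563 against 2053, 2141 and 4346. Their log2 differences were -0.75 (SE 0.34, adjusted p = 0.275) and -0.41 (SE 0.35, adjusted p = 0.577). SRSF3, the smallest of the family, split in the same way, with 746, 1062 and 350 against 285, 304 and 643 by its brighter probe and -0.77 (SE 0.49, adjusted p = 0.437). SRSF5 was the SR protein with the highest positive value. Its brighter probe read 3059, 3099 and 4623 with DMSO and 4429, 4721 and 7011 with etoposide, where array 3 was the highest in each group and the log2 difference was 0.58 (SE 0.39, adjusted p = 0.471).

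**Figure D2:**
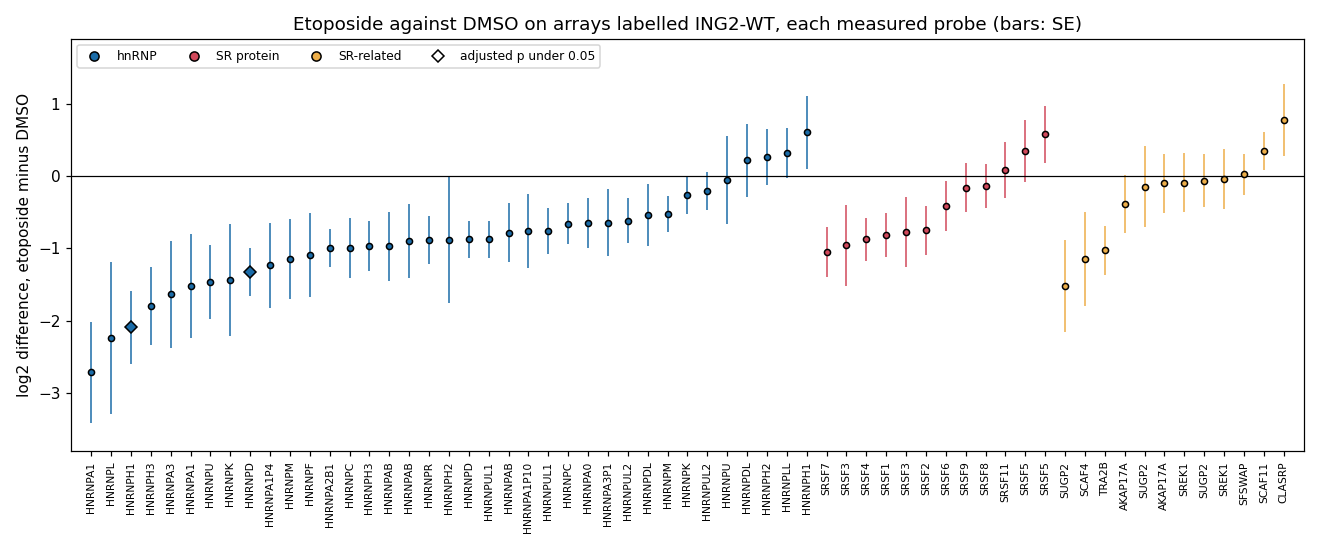
Log2 difference, etoposide minus DMSO, on the arrays labelled ING2-WT (vertical axis) for each of the 61 measured probes, sorted within hnRNPs, SR proteins and SR-related genes; bars are 1 SE of the limma fit and diamonds mark adjusted p under 0.05. The hnRNP median was -0.88, and 2 of 37 hnRNP probes, those of HNRNPH1 and HNRNPD, were called.

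The arrays numbered 3 held much of the spread. On array 3 of the ING2-WT etoposide group 17 of 37 hnRNP probes had their lowest value of all 12 arrays, against 4 of 24 SR-named probes, and 9 of 12 SR protein probes were higher there than on both other arrays of the group. These counts were not taken over all probes, so they cannot be read as a trait of the members. With the 4 arrays of that number left out, 24 hnRNP probes fell and 0 rose. In the same fit 8 SR-named probes fell and 1 rose, the brighter SRSF5 probe. Those that fell were 7 SR protein probes, both SRSF3 probes among them, and the TRA2B probe. Of all probes 13.7% were called lower and 11.6% higher. The medians were then -0.83 for hnRNPs and -0.31 for SR-named probes, with -0.86 for the SR proteins. By this fit HNRNPA2B1 differed by -1.14 (SE 0.13, adjusted p = 0.00378), HNRNPU by -1.89 (SE 0.17, adjusted p = 0.00170) with its dimmer probe, SRSF3 by -2.0 (SE 0.14, adjusted p = 0.000999) with its dimmer probe and TRA2B by -1.24 (SE 0.15, adjusted p = 0.00398). SRSF1, SRSF2, SRSF4, SRSF6 and SRSF7 were each called lower as well, at log2 differences between -1.47 and -0.76. The brighter HNRNPU probe was at 0.62 in that fit (SE 0.30, limma adjusted p = 0.169), so the probes of HNRNPU differed in sign there. For the dimmer SRSF3 probe the arrays numbered 3 went the other way, at 1.1 between them. On all arrays that probe was at -0.96 (SE 0.56, limma adjusted p = 0.398). The replicate number as a block, used because same-numbered arrays of these 2 groups deviated together, gave 9 hnRNP calls and 1 SR-named call, where 8.71% of all probes were called. The 2 calls on all arrays came from the fit over 4 groups, and a fit of the ING2-WT groups alone gave 0 hnRNP and 0 SR-named calls, with 0.647% of all probes called. Leaving out array 3 of the ING2-WT etoposide group alone gave 6 hnRNP calls (5.89% of all probes) and moved the hnRNP median to -0.53. Without array 3 of the ING2-6K/Rmt DMSO group there were 3 (4.92% of all probes), and without any of 8 other arrays 0 (1.80% to 3.72%).

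On the arrays labelled ING2-6K/Rmt the members stood on the other side. Of the hnRNP probes 28 of 37 and of the SR-named probes 21 of 24 were higher on the arrays labelled etoposide, with medians of 0.27 and 0.41 (SR proteins 0.32, SR-related 0.55) against -0.04 over all probes. None of the members was called by limma, where 1.35% of all probes were, and 3 hnRNP and 3 SR-named probes were higher at an unadjusted p under 0.05, against 4.83% of all probes. HNRNPA2B1 read 4981, 5266 and 3671 on the arrays labelled DMSO and 8798, 7991 and 7706 on those labelled etoposide. All 3 of the latter were above all 3 of the former, and the log2 difference was 0.83 (SE 0.26, adjusted p = 0.282). The brighter HNRNPD probe read 5394, 6424 and 4950 against 8425, 8306 and 7524 (0.54, SE 0.26, adjusted p = 0.632), also without overlap, and the dimmer probe 3651, 3591 and 2408 against 5138, 3934 and 4311 (0.49, SE 0.33, adjusted p = 0.739). HNRNPUL2, a paralogue of HNRNPUL1, gave 0.70 (SE 0.26, adjusted p = 0.433) and 0.76 (SE 0.31, adjusted p = 0.506) with its measured probes. HNRNPH2, a close relative of HNRNPH1, was the leading exception, at -0.79 (SE 0.39, adjusted p = 0.640) with its brighter probe. The called HNRNPH1 probe of the first comparison read 475, 377 and 435 against 457, 475 and 612 here, where the groups overlapped (0.26, SE 0.51, adjusted p = 0.920).

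Among SR proteins in the same arrays SRSF6 read 2335, 2224 and 3695 with the DMSO label and 5266, 5316 and 3798 with the etoposide label (log2 difference 0.82, SE 0.35, adjusted p = 0.540). SRSF2 read 2894, 3080 and 4674 against 5531, 6186 and 6399 (0.80, SE 0.34, adjusted p = 0.543). Neither pair of groups overlapped, and in each gene array 3 of the DMSO group was the highest of its group. SRSF1 read 2283, 2456 and 3350 against 3981, 4389 and 2894 (0.48, SE 0.30, adjusted p = 0.725) and SRSF7 714, 750 and 449 against 628, 660 and 583, at a log2 difference of 0.0029 (SE 0.34, adjusted p = 0.999). Groups overlapped in both. TRA2B read 1623, 1561 and 1019 against 2360, 2691 and 1523 (0.64, SE 0.34, adjusted p = 0.674), with array 3 the lowest of each group. CLASRP, named for its binding to an SR protein kinase, and the dimmest probe of SUGP2, a G-patch splicing factor, had the highest SR-related values, at 0.99 (SE 0.49, adjusted p = 0.642) and 1.73 (SE 0.64, adjusted p = 0.404). The brighter SUGP2 probes gave 0.89 (SE 0.56) and 0.22 (SE 0.36). Groups without overlap, etoposide label higher, were seen for 9 hnRNP and 2 SR-named probes, against 9.13% of all probes.

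The arrays numbered 3 weighed on this comparison as well. Without them 15 of 24 SR-named probes were called higher and 0 lower, and of the 37 hnRNP probes 6 were called higher and 4 lower, where 15.2% of all probes were called higher and 16.6% lower. The medians were 0.74 for SR-named and 0.14 for hnRNP probes. SRSF6 then stood at 1.22 (SE 0.13, adjusted p = 0.00353), SRSF1 at 0.82 (SE 0.14, adjusted p = 0.00934) and both SRSF5 probes at 0.84 and 1.13 (adjusted p = 0.00985 and 0.0112). The hnRNP probes called lower were those of HNRNPH2, HNRNPLL and the brighter HNRNPA1 probe, at log2 differences from -1.36 to -0.60, and HNRNPA2B1 and HNRNPD (brighter probe) were among those called higher, at 0.71 (SE 0.13) and 0.51 (SE 0.15).

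**Figure D3:**
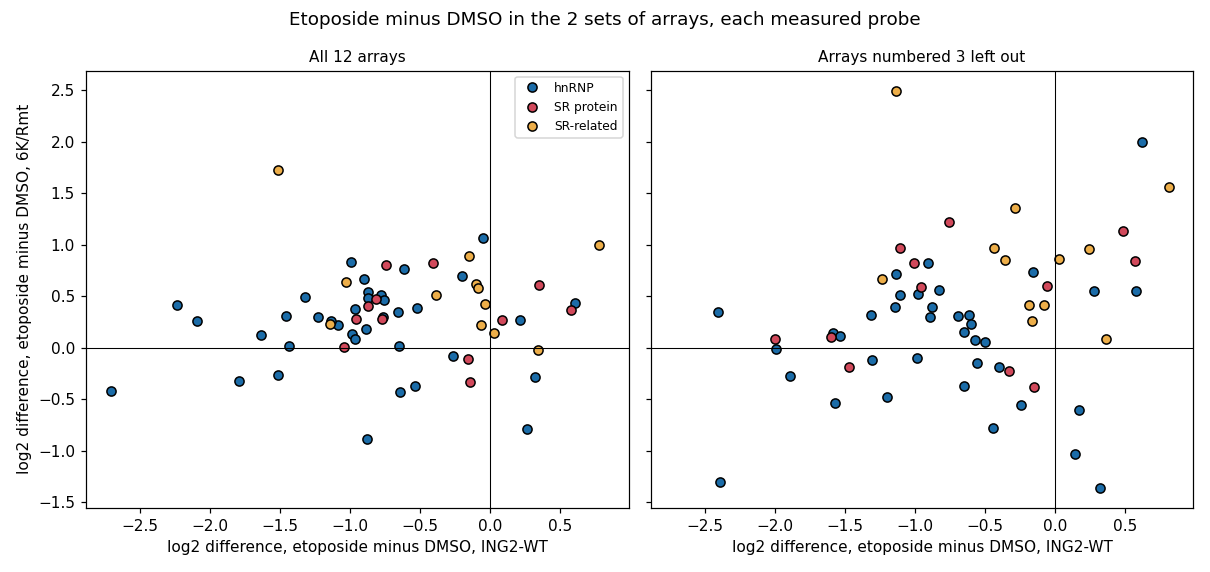
Log2 difference, etoposide minus DMSO as labelled, on the ING2-WT arrays (horizontal axis) and on the ING2-6K/Rmt arrays (vertical axis) for each of the 61 measured probes, with all 12 arrays at left and without the arrays numbered 3 at right. On all arrays 33 of 37 hnRNP probes lay left of 0 on the ING2-WT axis and 28 of 37 above 0 on the ING2-6K/Rmt axis.

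The difference between the labelled effects was tested in the same fit. The hnRNP probes had a median difference of effects (ING2-6K/Rmt minus ING2-WT) of 1.25 and the SR-named probes of 0.81 (SR proteins 1.05, SR-related 0.69), against 0.06 over all probes. By limma 3 hnRNP probes and 0 SR-named probes were called, the hnRNP probes all higher, where 3.51% of all probes were called higher and 5.52% in either direction. The called probes were HNRNPA2B1, with a difference of 1.82 (SE 0.37, adjusted p = 0.0138), and both HNRNPD probes, with 1.41 (SE 0.37, adjusted p = 0.0478) for the brighter and 1.81 (SE 0.47, adjusted p = 0.0478) for the dimmer. HNRNPA2B1 kept its call without any of the 12 arrays in turn, at differences from 1.66 to 1.96. Each HNRNPD call was lost without any of 10 arrays, at adjusted p from 0.0662 to 0.125 and from 0.0531 to 0.128, and kept without array 3 of either ING2-WT group. Next in order came HNRNPUL1 at 1.36 (SE 0.36, adjusted p = 0.0535) and the brighter HNRNPH1 probe at 2.35 (SE 0.72, adjusted p = 0.0862). The dimmer HNRNPH1 probe gave -0.18 (SE 0.71).

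Of the SR-named genes the dimmest SUGP2 probe had the largest value, 3.25 (SE 0.90, adjusted p = 0.0615), followed in order of p by TRA2B at 1.66 (SE 0.48, adjusted p = 0.0700), SRSF2 at 1.55 (SE 0.48, adjusted p = 0.0946), SRSF1 at 1.29 (SE 0.43, adjusted p = 0.116) and SRSF4 at 1.27 (SE 0.42, adjusted p = 0.116). The brighter SUGP2 probes stood at 1.04 (SE 0.79) and 0.29 (SE 0.51). SRSF5 differed little, at -0.22 (SE 0.55) and 0.26 (SE 0.61) by its 2 probes, as did SRSF9 at 0.05 (SE 0.48). HNRNPK by its brighter probe was at 0.18 (SE 0.37) and HNRNPDL, the neighbour of HNRNPD and an AU-rich element binder too, at 0.05 (SE 0.72) and 0.16 (SE 0.61). Without the arrays numbered 3, 21 hnRNP probes were called higher and 3 lower, and 14 SR-named probes higher and 0 lower, where 15.7% of all probes were called higher and 17.0% lower. Array 3 of the ING2-WT etoposide group moved the hnRNP count most among single arrays, to 8 with 2 SR-named calls, where 10.0% of all probes were called.

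The labelled lines were then compared with each other under each labelled treatment, which used the same 12 arrays and shared its groups with the comparisons above. On the arrays labelled DMSO those labelled ING2-6K/Rmt stood lower than those labelled ING2-WT in 31 of 37 hnRNP probes and 21 of 24 SR-named probes, with medians of -0.56 and -0.25 against 0.05 over all probes. HNRNPA2B1 was the 1 hnRNP probe that was called, and 0 SR-named probes were called, where 1.95% of all probes were called lower and 2.20% in either direction. It fell by 1.21 on the log2 scale (SE 0.26, 2.31-fold lower, adjusted p = 0.0359), and the call was lost without any of 10 arrays (adjusted p = 0.0586 to 0.191) and kept without array 3 of either ING2-WT group. The replicate number as a block gave 2 hnRNP calls and 0 SR-named calls in this comparison, where 3.32% of all probes were called. HNRNPD came next at -0.80 (SE 0.26, adjusted p = 0.211) and -0.93 (SE 0.33, adjusted p = 0.295), then TRA2B at -0.94 (SE 0.34, adjusted p = 0.295) and SRSF2 at -0.93 (SE 0.34, adjusted p = 0.309). Groups without overlap and lower on the arrays labelled ING2-6K/Rmt were seen for 13 hnRNP and 4 SR-named probes, against 9.00% of all probes. With the arrays numbered 3 left out 12 hnRNP and 7 SR-named probes were called lower and 0 higher. Of all probes 10.2% were called lower and 10.2% higher in that fit.

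On the arrays labelled etoposide the order was turned. Those labelled ING2-6K/Rmt were higher in 34 of 37 hnRNP and 19 of 24 SR-named probes, with medians of 0.55 and 0.36 against 0.09 over all probes, and 0 members were called by limma where 4.69% of all probes were. At an unadjusted p under 0.05, 8 hnRNP probes were higher and 1 lower and 2 SR-named probes were higher, against 12.8% higher and 10.5% lower of all probes. Values nearest to the threshold were those of the dimmest SUGP2 probe, at 38.1, 39.4 and 25.7 on the ING2-WT arrays and 106, 281 and 170 on the ING2-6K/Rmt arrays (log2 difference 2.34, SE 0.64, adjusted p = 0.0586). The brighter SUGP2 probes gave 0.66 (SE 0.56) and -0.05 (SE 0.36), so the probes of this gene differed in sign. HNRNPH1 followed with its brighter probe at 1.62 (SE 0.51, adjusted p = 0.0922), against -0.47 (SE 0.50) with its dimmer probe, then HNRNPUL1 at 0.71 (SE 0.26, adjusted p = 0.132). HNRNPLL, which directs splicing of a leukocyte surface receptor in lymphocytes, ran the other way, with 557, 523 and 530 on the ING2-WT and 346, 307 and 277 on the ING2-6K/Rmt arrays (-0.80, SE 0.35, adjusted p = 0.194). It was the 1 hnRNP probe whose groups did not overlap with ING2-6K/Rmt lower, while 14 hnRNP and 7 SR-named probes did not overlap with it higher, against 17.2% and 14.9% of all probes. With the arrays numbered 3 left out 14 hnRNP probes were called higher and 3 lower, and 13 SR-named probes higher and 1 lower, against 17.9% and 19.4% of all probes.

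**Figure D4:**
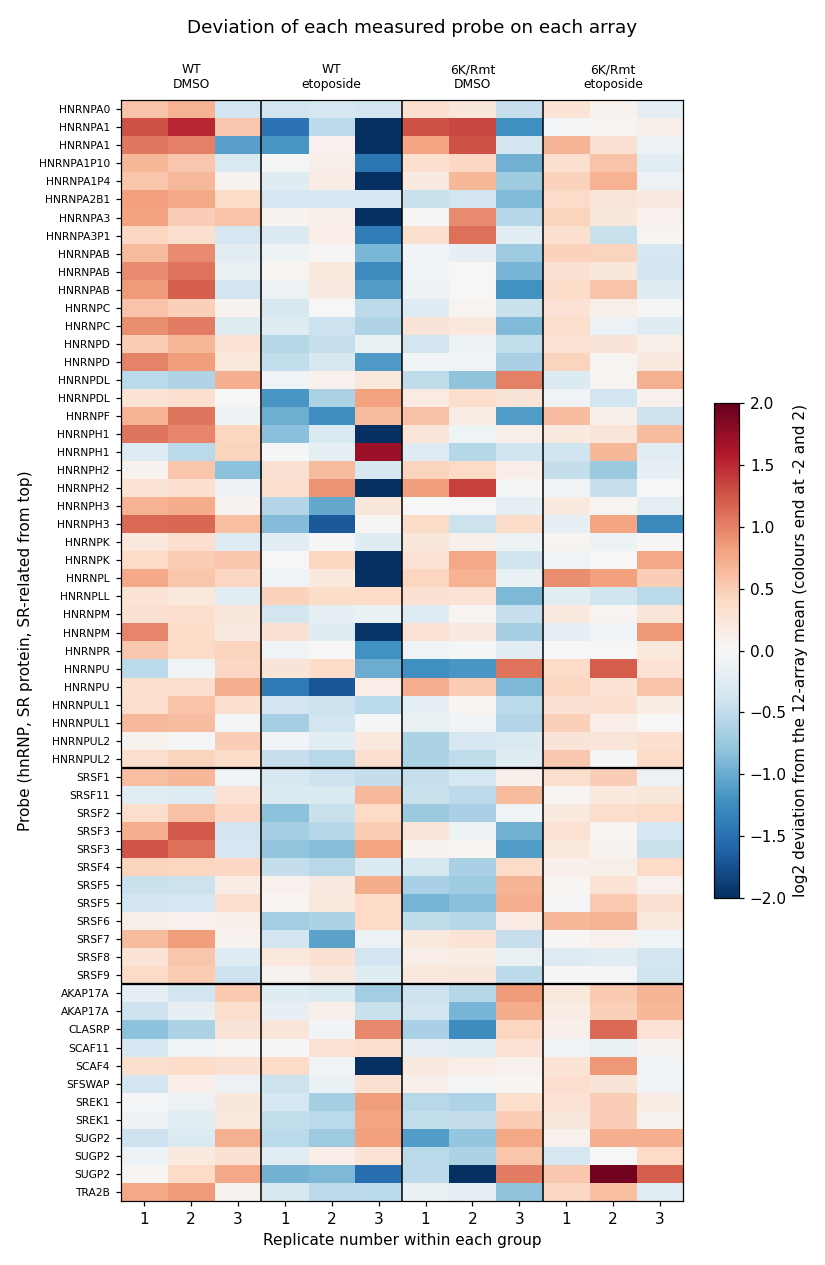
Deviation of each of the 61 measured probes (lines of the map, hnRNPs at top, then SR proteins and SR-related genes) from its mean over 12 arrays, in log2 units by colour with the scale ending at -2 and 2; columns are arrays 1 to 3 of each group. Array 3 of the ING2-WT etoposide group holds the lowest value of 17 of the 37 hnRNP probes, a count not taken over all probes.

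To set the families against each other, the mean deviation over genes was taken on each array. The hnRNP mean was 0.54, 0.55 and 0.10 on the ING2-WT DMSO arrays and -0.31, -0.18 and -1.05 on the ING2-WT etoposide arrays. For the SR-named genes it was 0.12, 0.25 and 0.13 and then -0.26, -0.29 and -0.02. Each of these means was lower on every etoposide array than on every DMSO array of this label, but the SR proteins taken alone overlapped, at 0.12 on etoposide array 3 and 0.05 on DMSO array 3. The hnRNP minus SR-named difference was 0.42, 0.30 and -0.02 with DMSO and -0.05, 0.10 and -1.03 with etoposide. It changed by -0.56 on average, -0.33 without the arrays numbered 3 and -0.20 without array 3 of the etoposide group alone. With the SR proteins alone in place of the SR-named genes, it was 0.23, 0.13 and 0.05 with DMSO. With etoposide it was then 0.03, 0.16 and -1.17, so only etoposide array 3 stood apart there. On the arrays labelled ING2-6K/Rmt the hnRNP mean was 0.11, 0.23 and -0.44 under the DMSO label and 0.24, 0.16 and 0.04 under the etoposide label, and the SR-named mean was -0.27, -0.38 and 0.10 and then 0.16, 0.37 and 0.09. The hnRNP minus SR difference was 0.38, 0.61 and -0.54 and then 0.08, -0.21 and -0.05, a change of -0.21 on average. That change was -0.56 without the arrays numbered 3, and 0.02 without array 2 and -0.56 without array 3 of the DMSO group. In each line the groups overlapped in this difference, the SD within a group was 0.14 to 0.62 (n = 3), and means over chosen members carry no test.

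**Figure D5:**
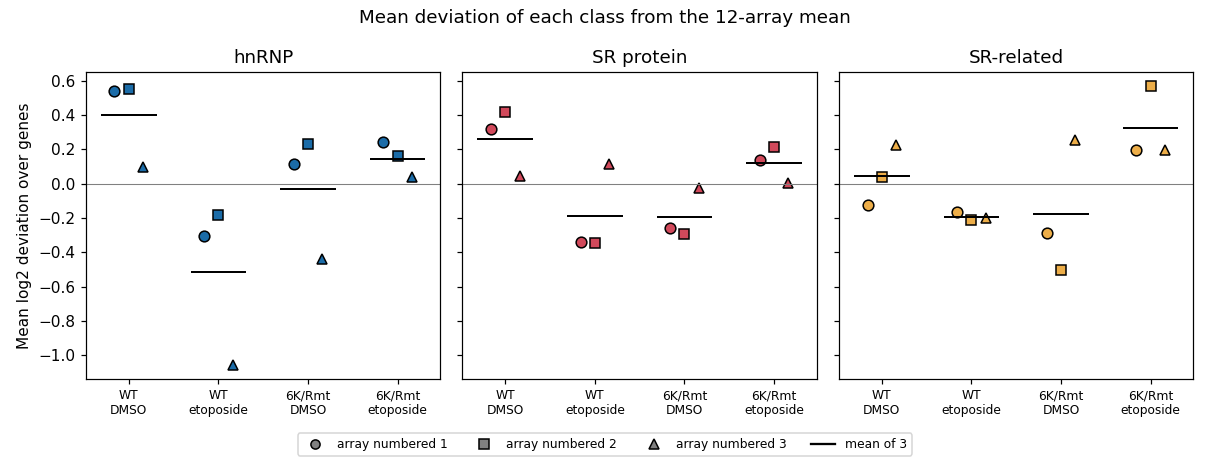
Mean log2 deviation from the 12-array mean over hnRNP genes, SR protein genes and SR-related genes (panels), per array (vertical axis) and group; marker shape gives the array number and the bar the mean of 3. The hnRNP mean was 0.10 to 0.55 on the ING2-WT DMSO arrays and -1.05 to -0.18 on the ING2-WT etoposide arrays.

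Probes of the same gene did not always read alike. Of the 18 genes with several measured probes, 3 had probes of opposite sign in the ING2-WT etoposide comparison (HNRNPDL, HNRNPH1 and HNRNPH2) and 6 had probes that differed by more than 1 log2 unit, namely HNRNPA1, HNRNPH1, HNRNPH2, HNRNPK, HNRNPU and SUGP2. HNRNPH1 had the widest gap, 2.70. In contrast the 3 probes of HNRNPAB, an AU-rich RNA binder, lay between -0.97 and -0.78, and the 2 probes of SRSF3 at -0.96 and -0.77. Which transcripts each probe detects was not analysed here. HNRNPA1P10, HNRNPA1P4 and HNRNPA3P1 are pseudogenes of HNRNPA1 and HNRNPA3, and their probes may read the parent transcripts. Their log2 differences in the ING2-WT etoposide comparison were -0.76 (SE 0.51), -1.23 (SE 0.59) and -0.65 (SE 0.46).

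Other splicing genes were described from lists of the machinery that hnRNPs and SR proteins act on. In the ING2-WT etoposide comparison the medians were -0.19 for the 26 Sm and snRNP genes, -0.05 for the 13 genes of U2AF, SF1 and the SF3 complexes, -0.27 for the 24 PRPF and catalytic step factors, -0.05 for the 8 measured of 9 SR protein kinases and import partners and -0.24 for 31 further regulators, with 1 probe per gene. Of these lists 3 of 102 genes were called, where 2.70% of all genes outside the members were called lower and 1.65% higher by their brightest probe. Each of the 3 was lower: LSM8, of the U6 ring, at -1.77 (SE 0.41, adjusted p = 0.0349), the helicase DDX46 at -1.31 (SE 0.30, adjusted p = 0.0298) and SYNCRIP, also named hnRNP Q, at -1.08 (SE 0.26, adjusted p = 0.0401). Without the arrays numbered 3, 12 of the 26 Sm and snRNP genes were called lower, 2 of the 13, 5 of the 24, 1 of the 8 and 5 of the 31, against 13.6% of all genes, and 1 Sm or snRNP gene and 1 of the 8 were called higher, against 12.5%. SYNCRIP is an hnRNP by function whose symbol kept it out of the members. PTBP1, hnRNP I by its older name and a repressor of neuronal exons, was at -0.78 (SE 0.25, adjusted p = 0.118). In the difference of effects DDX46 at 1.74 (SE 0.42, adjusted p = 0.0325) and PTBP1 at 1.35 (SE 0.35, adjusted p = 0.0494) were called higher, and SYNCRIP was at 1.38 (SE 0.37, adjusted p = 0.0542). None of these genes was called on the arrays labelled ING2-6K/Rmt when all arrays were used, and PTBP1 was called higher there without the arrays numbered 3 (0.68, adjusted p = 0.0304). SRPK1, a kinase that phosphorylates SR proteins in the cytoplasm, was at -0.62 (SE 0.32, adjusted p = 0.345) on the ING2-WT arrays and CLK3, a nuclear SR kinase, at 0.81 (SE 0.39, adjusted p = 0.296).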

How the data were processed

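Total RNA of 12 HT1080 samples was hybridised to Illumina bead arrays by the authors, who processed probe-level data in Genespring. The deposited values are intensities on a linear scale with background already subtracted, and how the authors scaled them is not given in the sources used here. Gene symbols came from the deposited probe table, were updated through RefSeq for 48 of the 67 member probes and were current for the other 19. A further 24 signal and detection columns matched no sample label and were not used. Intensities were quantile normalised, and this is the scale of every intensity printed. Values under 16 were then set to 16, log2 was taken, and probes at 64 or more on at least 3 of 12 arrays were kept, 15459 probes of 11460 genes. limma (version 3.58.1, R 4.3.3) was fitted with 4 group means over all 12 arrays, two-sided, with Benjamini-Hochberg adjustment over all kept probes. A probe was called at adjusted p under 0.05, groups did not overlap where every array of the higher group exceeded every array of the lower, and deposited counts or depths do not exist for arrays, whose number limits the precision. The limma fit was also run on simulated data with independent values and the same spread in every group. Those data held no deviating array, so the run says nothing of the arrays numbered 3. The text names, per comparison, the called members and others picked from those with the smallest p. It also names a fixed list of well-known members, some genes whose probes disagree, and genes picked from the other splicing lists. Not every member or listed gene with a small p is named. Members and lists were chosen with earlier results of these data known. Same-numbered arrays were checked for pairing by the correlation of their deviations from group means. All 3 pairs exceeded 0.1 in the ING2-WT etoposide comparison (0.218, 0.261 and 0.319) and the DMSO comparison of the lines (0.46, 0.368 and 0.635), not in the others, and the labels state no shared batch. Alternatives were leaving out arrays, array weights, the replicate number as a block, a fit of the compared groups alone, a model without moderation, 1 probe per gene, and other scalings, floors and filters.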

Additional observations from a re-analysis of the deposited data

Results flagged for a closer look

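The etoposide effect, as labelled, differed between the labelled lines by an interaction term for 3 probes of 2 genes. HNRNPA2B1 differed by 1.82 on the log2 scale, with values of 8714 to 11997 and 5302 to 5358 on the ING2-WT arrays with DMSO and etoposide and of 3671 to 5266 and 7706 to 8798 on the ING2-6K/Rmt arrays. HNRNPD differed by 1.41 with its brighter probe and by 1.81 with its dimmer probe. For each of the 3 probes the groups did not overlap in either line, with etoposide lower on the ING2-WT arrays and higher, by label, on the ING2-6K/Rmt arrays. The probes were picked by this same call, so their directions are a description and no further support. The check of the treatment labels by CDKN1A, MDM2 and TOP2A ran in opposite directions in the lines as well, and its part in these differences was not tested. Groups of 3 arrays were too small for a search for single outlying values.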

How the results depend on the processing

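No result changed direction among 1227 repeats of 50 probe results under the alternatives, 1026 of which kept their side of the threshold, 65 lost a call and 136 gained one, and HNRNPA2B1 kept its call in the difference of effects under all 25. In many repeats the direction could not change. Leaving out an array of a group not compared kept the log2 difference, as did the block, the unmoderated model and the fit of the compared groups alone. The 50 results were also chosen by their small p in these data, so their kept direction is no support. Counts of calls depended most on the arrays numbered 3. With these left out, or with array weights (whose fit stopped before it converged), hnRNP calls were 24 and 23 instead of 2 in the ING2-WT etoposide comparison, 10 and 12 instead of 0 in the ING2-6K/Rmt etoposide comparison, 24 and 24 instead of 3 in the difference of effects, 12 and 17 instead of 1 between the lines with DMSO and 17 and 19 instead of 0 with etoposide. SR-named calls, 0 in each comparison on all arrays, were 9 and 9, 15 and 15, 14 and 13, 7 and 8, and 14 and 15 in the same order. Of all probes 25.3% and 30.0%, 31.8% and 38.1%, 32.7% and 38.7%, 20.4% and 29.9%, and 37.3% and 40.1% were called. The SR-named medians moved to 0.74 and 0.65 (from 0.41) on the ING2-6K/Rmt arrays, to -0.50 and -0.47 (from -0.25) between the lines with DMSO and to 0.62 and 0.61 (from 0.36) with etoposide. In the difference of effects the SR-named median (0.81) was 1.02 without those arrays, 1.04 with 75th percentile scaling, 1.02 with the deposited values and 1.04 with cyclic loess. These scalings moved the median of all probes there from 0.06 to 0.18 (75th percentile) and 0.17 (deposited values).

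The replicate block gave hnRNP calls of 9, 0, 8, 2 and 3 and SR-named calls of 1, 0, 3, 0 and 1 in the order above, where 8.71%, 2.30%, 12%, 3.32% and 14.0% of all probes were called, and changed the calls of no other class count. Over the comparisons where the check did not pair the arrays, this says nothing of pairing. hnRNP calls in the ING2-WT etoposide comparison were 1 with 75th percentile scaling and with the deposited values, 4 with cyclic loess, 5 with a floor of 64, 4 in the unmoderated model and 0 with only the groups compared. In the difference of effects hnRNP calls were 1 with 75th percentile scaling, 1 with the deposited values and 5 in the unmoderated model. Of all probes 5.59%, 5.75% and 6.05% were called there. With cyclic loess, a floor of 64 or the filter on all 12 arrays 1 SR-named probe was called. The shares of all probes called in those settings were 5.93%, 6.59% and 6.31%. Between the lines with DMSO the hnRNP count was 0 with 75th percentile scaling, the deposited values or only the groups compared. It was 2 in the unmoderated model. The shares of all probes called were 2.30%, 2.27%, 1.61% and 2.19% in that order. With etoposide the unmoderated model gave 1 hnRNP call, where 4.19% of all probes were called.

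Leaving out each array in turn gave hnRNP and SR-named calls of 0 to 6 and 0 to 0, 0 to 0 and 0 to 0, 1 to 8 and 0 to 2, 0 to 1 and 0 to 0, and 0 to 1 and 0 to 1. Of all probes 1.80% to 5.89%, 0.679% to 2.06%, 3.73% to 10.0%, 1.18% to 3.45% and 1.31% to 8.88% were called, in the same order. The hnRNP medians ran from -1.07 to -0.53, 0.02 to 0.38, 0.89 to 1.42, -0.64 to -0.33 and 0.39 to 0.65, and the SR-named medians from -0.36 to -0.15, 0.26 to 0.67, 0.57 to 0.91, -0.57 to -0.17 and 0.18 to 0.61. The hnRNP minus SR change ran from -0.77 to -0.20 on the ING2-WT arrays and from -0.56 to 0.02 on the ING2-6K/Rmt arrays. Probes near background, such as those of HNRNPA1, are limited by the floor.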
